A study of Rattus norvegicus with 6 samples.

Results

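The splicing factor and heterogeneous nuclear ribonucleoprotein (hnRNP) genes described here were compared between corneal epithelium of streptozocin- (STZ-) induced diabetic rats and of normal rats. Members are protein-coding loci whose symbol starts with *Srsf*, *Hnrnp*, *Snrp*, *Sf3a*, *Sf3b*, *U2af* or *Prpf* and whose mean over the 6 libraries reached 0.5 FPKM (fragments scaled by locus length and by the fragments of the library). They number 60, of 20864 protein-coding loci and 61453 loci in all, with 9 *Srsf*, 17 *Hnrnp*, 10 *Snrp*, 3 *Sf3a*, 5 *Sf3b*, 3 *U2af* and 13 *Prpf* genes. Of 64 loci with such a symbol, 4 lay under the limit: *Snrpd2l* (0.424 FPKM), *Srsf12* (0.337), *Snrpn* (0.0128) and *Srsf8* (0). The lowest mean inside it was 2.40 FPKM, of *Snrpb2*.

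The diabetic group was 3 libraries from male Brown Norway rats given STZ once into the peritoneum at 50 mg/kg, with blood glucose above 16.67 mmol/l. The normal group was 3 libraries from male rats of that strain given citrate buffer. Rats weighed 150 to 200 g at the start, their age is not given, and scraped epithelium was taken at 16 weeks. STZ destroys insulin-producing cells, so the model is one of insulin lack, and the drug itself cannot be told apart from the diabetes it causes. How corneas were combined into libraries is not given, so p-values set differences against the spread between libraries, which may not be that between rats.

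Splicing removes introns in the spliceosome, which is built anew on each intron from small nuclear ribonucleoproteins (snRNPs). Most of these are an snRNA held in a ring of Sm proteins, while U6 RNA is held in a ring of LSm proteins. The U1 snRNP reads the 5′ splice site, U2AF and the U2 snRNP with its SF3a and SF3b parts read the 3′ splice site and branch point, and the U4/U6.U5 tri-snRNP with its PRPF proteins brings the catalytic centre. SR proteins (*Srsf* genes) mostly promote the use of exons they bind, and hnRNPs often oppose them, so the balance between both families sets many alternative exons.

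Total counts were 62288901 to 87040253 in diabetic libraries and 76500184 to 81139312 in normal libraries, and 3 counts, the limit that a count of 0 allows, equal 0.0345 to 0.0482 CPM (counts scaled to the library total). This limit covers counting error only, and each member had between 93 and 27483 counts in a library. The 7 corneal epithelium markers tested summed to 13757 to 15443 FPKM in diabetic and 13349 to 14120 FPKM in normal libraries. *Aldh3a1* led them (means of 9631 FPKM in diabetic and 9304 FPKM in normal epithelium). The corneal keratin *Krt12* came next (4119 and 3949 FPKM). The 11 keratocyte markers found of 12 summed to 824 to 910 FPKM in diabetic and 887 to 1148 FPKM in normal libraries. The 12 lens markers summed to 162, 1336 and 8.49 FPKM in diabetic replicates 1 to 3. In normal replicates 1 to 3 they summed to 388, 118 and 159 FPKM. The 10 macrophage markers found of 12 summed to 18.5 to 33.4 FPKM in diabetic and 23.1 to 24.5 FPKM in normal libraries, and the 9 lymphocyte markers to at most 0.362 FPKM in diabetic and 0.721 FPKM in normal libraries, with 4 of them at 0 in all libraries. On the first principal component of all tested loci, diabetic replicates 2 and 3 (-43.8 and -53.1) stood apart from diabetic replicate 1 (28.8) and the normal libraries (11.2 to 38.9).

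No member passed the test between diabetic and normal epithelium. The threshold was a fold change over 1.2 (0.263 on the log2 scale) together with a p under 0.05 after Benjamini-Hochberg adjustment over 42551 loci. Under limma on log2(FPKM + 1), 0 of 60 members passed, beside 0.0259% of all loci and 0.0346% of protein-coding loci. On the counts of the same loci, 0 of 60 passed edgeR's quasi-likelihood test (0.0141% of all loci) and 0 of 60 passed DESeq2 (0.233%). The smallest adjusted p of a member was 0.953 with limma, 0.991 with edgeR and 0.370 with DESeq2. At an unadjusted p under 0.05, limma held 0 members higher and 3 lower in diabetic epithelium (*Hnrnph1*, *Hnrnpf* and *Srsf2*), against 1.55% higher and 1.50% lower among 11570 protein-coding loci. edgeR held 0 higher (2.22% of protein-coding loci) and 2 lower (1.48%), *Hnrnph1* and *Hnrnpf*, and DESeq2 held 0 higher (2.58%) and the same 2 lower (1.62%). Leaving out diabetic replicate 1 gave 2 higher (3.77% of protein-coding loci) and 7 lower (3.64%) with limma. Without diabetic replicate 2 it held 0 higher (0.951%) and 1 lower (1.25%), and without diabetic replicate 3 it held 1 higher (1.49%) and 1 lower (1.52%). Without normal replicate 1 it held 0 higher (1.23%) and 1 lower (0.942%), without normal replicate 2 it held 1 higher (1.19%) and 3 lower (1.011%), and without normal replicate 3 it held 0 higher (1.22%) and 2 lower (1.82%).

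The interval of the difference was narrow for most members. The 95% interval of the limma log2 fold change lay wholly between -0.5 and 0.5 for 44 of 60 members and between -1 and 1 for 57. It lay wholly within a fold of 1.2 for 4. The fold change itself was under 1.2 in either direction for 53 members. These fold changes are on the log2(FPKM + 1) scale, which understates differences of low genes.

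The fitted differences leaned to the lower side. The log2 fold change was positive for 17 members and negative for 43, where 49.0% of all tested loci and 48.9% of protein-coding loci were positive. Its median was -0.046 over members, -0.0049 over all loci and -0.0037 over protein-coding loci, and it ran from -0.75 for *Hnrnph1* to 0.42 for *Snrpg*. Over all 60 members, this lean depended on diabetic replicate 3. Without that library 32 members were positive and 28 negative, and the median was 0.013. The class medians of *Srsf* (-0.19 to -0.092) and *Hnrnp* (-0.16 to -0.032) stayed negative with limma whichever library was left out. Diabetic replicate 3 was the lowest of the 6 for 31 members, while diabetic replicate 1 was the highest of the 6 for 16 members. Members took 0.492%, 0.445% and 0.435% of all counts in diabetic replicates 1 to 3, against 0.508%, 0.489% and 0.511% in normal replicates 1 to 3. Summed FPKM of the 60 members was 822, 752 and 720 in diabetic libraries, against 837, 809 and 822 in normal libraries. Diabetic replicate 1 therefore lay among the normal libraries in the sum, and diabetic replicates 2 and 3 below them. Diabetic replicates 2 and 3 also had the lowest total counts, 62288901 and 64263130, against 87040253 in diabetic replicate 1. The part of depth in these values was not tested.

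**Figure D1:**
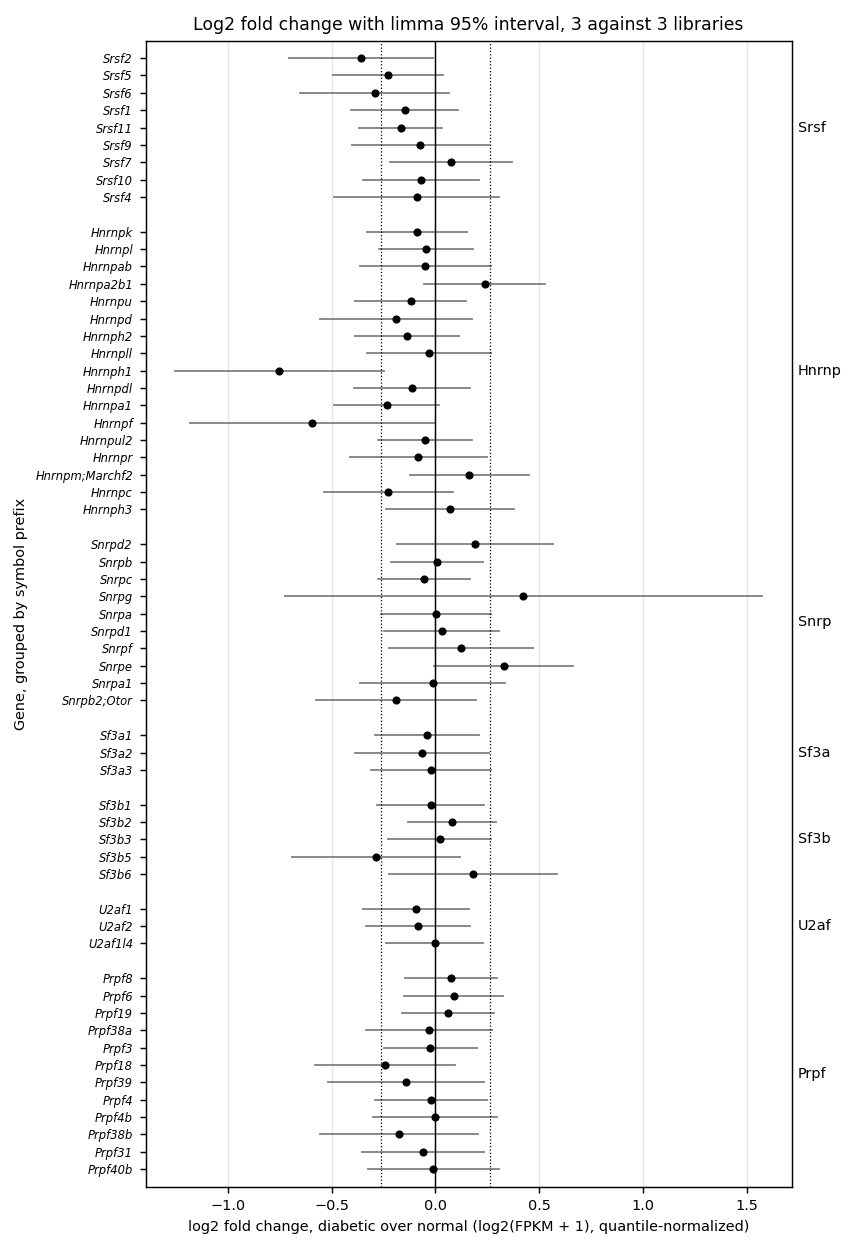
Log2 fold change of diabetic over normal epithelium for the members, on the quantile-normalized log2(FPKM + 1) scale, grouped by symbol prefix and ordered within a class by mean FPKM; points are limma estimates from 3 against 3 libraries, bars their 95% intervals, and dotted lines a fold of 1.2. Most intervals cross 0, most points lie below it, and *Hnrnph1* (-0.75) and *Hnrnpf* (-0.59) lie farthest down.

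The groups separated for few members. All 3 diabetic FPKM values lay above all 3 normal values for 1 member (*Snrpe*), where 3.94% of all tested loci did so. They lay below all normal values for 4 members (*Hnrnph1*, *Hnrnpf*, *Hnrnpa1* and *Srsf11*), where 5.72% of all tested loci did so. For this comparison, CPM used totals of the tested loci rescaled by edgeR's TMM factors, not plain library totals. On that scale 3 members lay above (*Snrpe*, *Prpf8* and the row of *Hnrnpm*), beside 4.59% of all tested loci. Below lay 4, beside 4.91%. The coefficient of variation over the 6 libraries had a median of 11.1% among members and 12.1% among the 8150 protein-coding loci of the same FPKM range. *Prpf8* varied least (3.37%) and *Snrpg* most (54.2%).

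The 100 bases before the transcription start are shown for the 5 members that had an unadjusted limma p under 0.05 in the lower direction or all diabetic FPKM values below all normal values, with the promoter boxes they hold. They come from RefSeq, build GRCr8, and are written 5′ to 3′ on the strand of the gene. Capitals mark matches, on either strand, to the CCAAT box (CCAAT), the GC box (GGGCGG), the TATA box (TATAAA) or an ETS motif (CCGGAAG).
Srsf2 (chr10:102554142-102554241, minus strand): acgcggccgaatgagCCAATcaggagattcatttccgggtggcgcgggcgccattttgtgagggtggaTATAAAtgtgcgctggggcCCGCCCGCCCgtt
Srsf11 (chr2:249760259-249760358, minus strand): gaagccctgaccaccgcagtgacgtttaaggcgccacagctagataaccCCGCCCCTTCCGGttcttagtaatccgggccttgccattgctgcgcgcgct
Hnrnph1 (chr10:35194533-35194632, plus strand): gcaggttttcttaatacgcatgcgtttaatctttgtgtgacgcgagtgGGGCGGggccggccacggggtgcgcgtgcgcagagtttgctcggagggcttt
Hnrnpf (chr4:152755568-152755667, plus strand): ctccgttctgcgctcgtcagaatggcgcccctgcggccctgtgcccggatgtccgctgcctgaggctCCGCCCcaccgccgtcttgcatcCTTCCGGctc
Hnrnpa1 (chr7:136254018-136254117, plus strand): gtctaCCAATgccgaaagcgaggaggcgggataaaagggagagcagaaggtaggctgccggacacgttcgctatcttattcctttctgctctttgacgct

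*Srsf2* holds a CCAAT box, a TATA box and GC boxes in this window, *Srsf11* and *Hnrnpf* an ETS motif and a GC box, *Hnrnph1* a GC box and *Hnrnpa1* a CCAAT box. Over 250 bases before the start, of the 56 members with a sequence, 17 (30.4%) held CCGGAAG on either strand, against 9.52% of 19005 protein-coding promoters. GGGCGG was in 31 (55.4%), against 40.3%, and CCAAT in 26 (46.4%), against 35.5%. TATAAA was in 5 (8.93%), against 12.3%, and the E-box CACGTG in 6 (10.7%), against 6.38%. The cyclic AMP response element TGACGTCA was in 2 (3.57%), against 2.03%. In *Srsf11* the GC box and the ETS motif are adjacent, and in *Srsf2* a pair of GC box matches share bases. The observed over expected CpG ratio had a median of 0.895 in members and 0.523 in all promoters, and exceeded 0.6 in 50 members (89.3%) against 44.2%. Promoters were matched to members by gene symbol. For *Snrpe* and *Snrpg* they belong to RefSeq genes on other chromosomes than the rows measured here. The counts over 250 bases and the CpG values include both promoters. Both are among the 17 with an ETS motif, and *Snrpg* is among the 2 with a cyclic AMP response element. Shares without them were not computed. A match is only a match of letters, and the files hold no binding data.

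SR proteins had 1 positive and 8 negative log2 fold changes and a median of -0.15. Summed *Srsf* FPKM was 175, 141 and 135 in diabetic libraries, against 188, 183 and 168 in normal libraries. Averaged over the 9 genes, deviations from the 6-library mean were 0.093, -0.13 and -0.19 (log2) in diabetic replicates 1 to 3, against 0.068, 0.087 and 0.070 in normal replicates 1 to 3. In this mean diabetic replicate 1 lay above every normal library, in the sum it lay among them, and diabetic replicates 2 and 3 were below them in both. Leaving out diabetic replicate 1 gave a class median of -0.19, and leaving out diabetic replicate 3 gave -0.092. A list of 12 tested immediate early and stress genes, which respond to tissue handling, deviated by 0.87, -1.003 and -0.57 in diabetic replicates 1 to 3, and by 0.14, -0.16 and 0.73 in normal replicates 1 to 3. Their log2 fold change was positive for 1 and negative for 11 (median -0.36). Summed over the 13 genes of the list that were found, FPKM ran from 405 to 846 in diabetic and from 475 to 841 in normal libraries, and their part in the SR protein values was not tested.

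**Figure D2:**
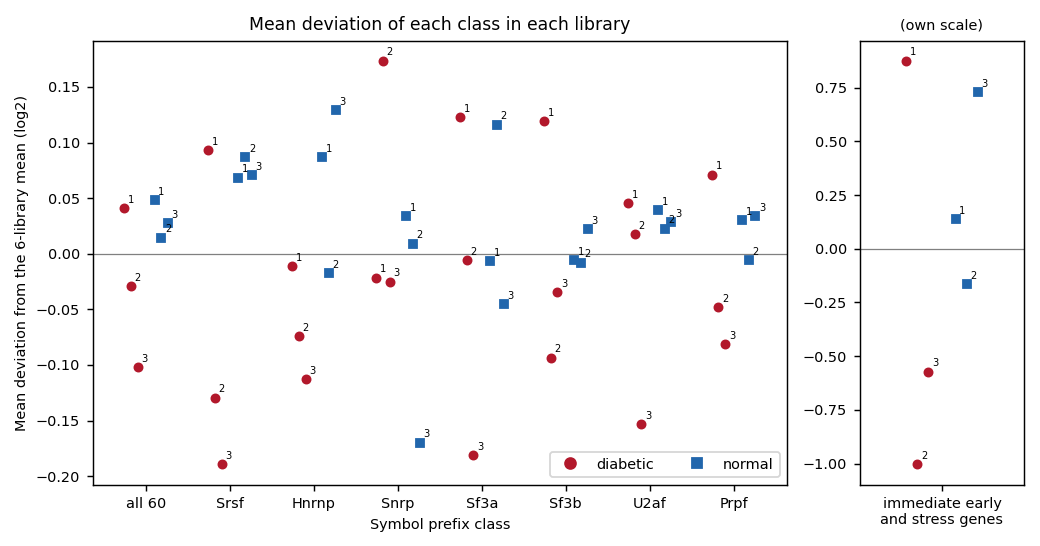
Mean deviation of each prefix class from the 6-library mean (log2, left axis), and of 12 immediate early and stress genes on their own scale (right), for 3 diabetic (circles, left of each pair) and 3 normal (squares) libraries with replicate numbers beside the points. In the *Srsf* class diabetic replicate 1 lies at 0.093 and diabetic replicates 2 and 3 at -0.13 and -0.19, and the immediate early and stress genes have diabetic replicates 2 and 3 lowest as well.

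*Srsf2*, the SR protein best known from nuclear speckles (rn6 chr10:105792779-105796679), had the highest mean of all 60 members. It had 52.6, 43.3 and 40.8 FPKM in diabetic libraries, against 68.0, 65.6 and 45.9 FPKM in normal libraries. The groups overlapped, because normal replicate 3 lay below diabetic replicate 1. The means were 45.6 ± 6.20 in diabetic and 59.8 ± 12.1 FPKM in normal epithelium (SD, n = 3 each), with a log2 fold change of -0.36 (SE 0.149, limma unadjusted p = 0.045, adjusted p = 0.953). edgeR gave -0.37 with an unadjusted p of 0.0822.

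*Srsf11*, an SR-related protein that contacts U1 and U2 components (rn6 chr2:264837472-264864265), had 12.9, 12.9 and 13.2 FPKM in diabetic libraries, against 15.1, 14.7 and 15.1 FPKM in normal libraries. Its groups did not overlap, and both were tight: 13.0 ± 0.181 in diabetic and 15.0 ± 0.238 FPKM in normal epithelium (SD, n = 3 each). The log2 fold change was only -0.17 (SE 0.0859), with a limma adjusted p of 0.953.

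*Srsf5*, an SR protein also known as an insulin-induced gene of rat liver cells, had 36.8, 29.0 and 27.6 FPKM in diabetic libraries, against 39.3, 35.4 and 35.6 FPKM in normal libraries (log2 fold change -0.23, SE 0.113). *Srsf6*, a regulator of exon use in keratinocytes, had 26.3, 17.3 and 17.1 FPKM in diabetic libraries, against 23.4, 24.0 and 26.4 FPKM in normal libraries (-0.29, SE 0.154). In both genes diabetic replicate 1 lay among the normal values and diabetic replicates 2 and 3 under them. *Srsf1*, the founding SR protein, had 14.7 ± 1.61 FPKM in diabetic and 16.6 ± 1.29 FPKM in normal epithelium (SD, n = 3 each). *Srsf9*, *Srsf10* and *Srsf4* averaged 7.28, 5.93 and 5.59 FPKM in diabetic epithelium, against 7.69, 6.30 and 5.99 FPKM in normal epithelium, with overlapping groups. *Srsf7*, which also links splicing to mRNA export, was the 1 member of the class with a positive value (0.07), at 8.15, 6.17 and 7.19 FPKM in diabetic and 6.499, 6.29 and 7.69 FPKM in normal libraries. *Srsf3* is not a member because its row has a mixed transcript type. It had 24.9, 11.7 and 16.8 FPKM in diabetic and 13.6, 14.3 and 17.4 FPKM in normal libraries, with diabetic replicate 1 the highest.

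**Figure D3:**
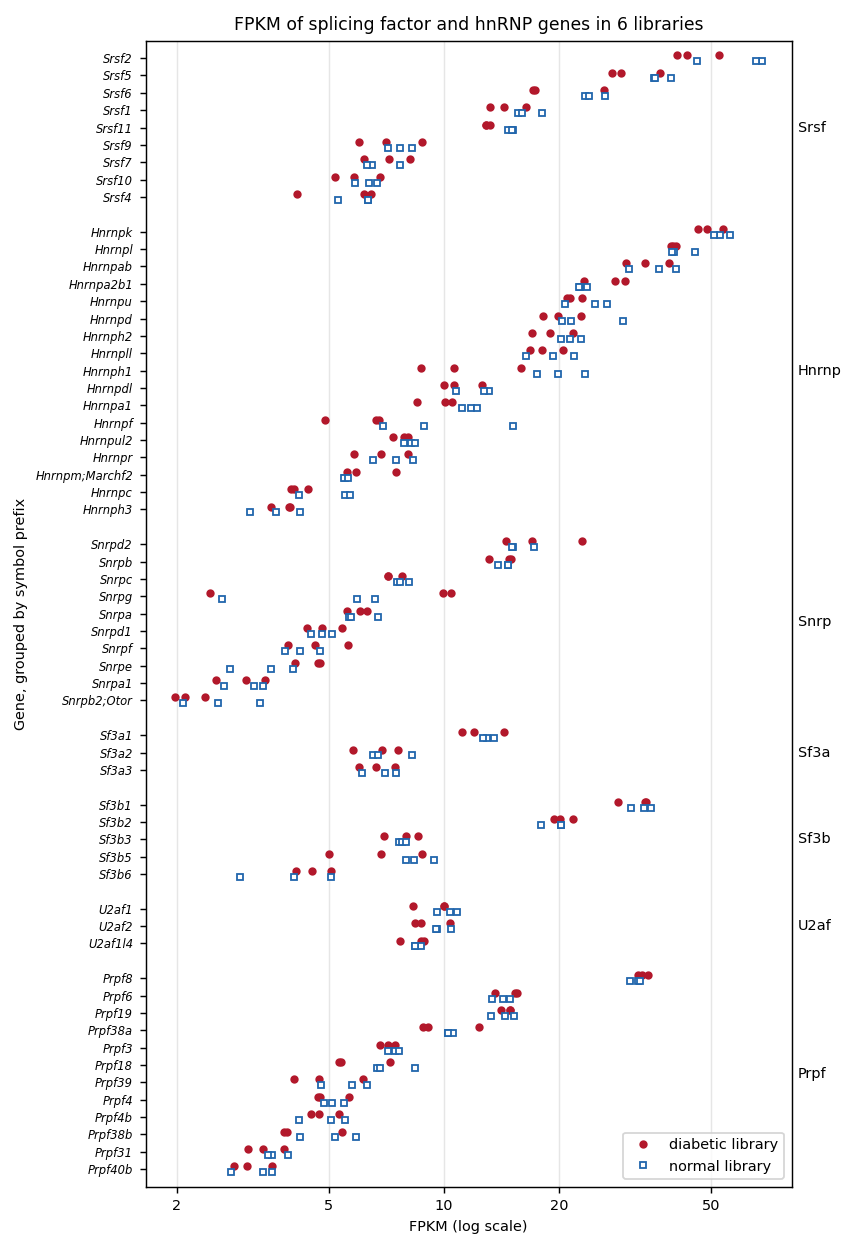
FPKM (log axis) of the members in every library, grouped by symbol prefix and ordered by mean FPKM, with diabetic libraries as filled circles above normal libraries as open squares. Means run from 2.40 for *Snrpb2* to 52.7 for *Srsf2*, and circles and squares overlap in all rows but those of *Srsf11*, *Hnrnph1*, *Hnrnpf*, *Hnrnpa1* and *Snrpe*.

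Among hnRNPs, the genes of the H and F subfamily, which bind runs of guanines, held the widest differences. *Hnrnph1* (rn6 chr10:35870232-35879910) had 10.6, 15.9 and 8.73 FPKM in diabetic libraries, against 17.5, 19.9 and 23.3 FPKM in normal libraries. Each diabetic value was below each normal value. The raw counts behind them were 7792, 8389 and 4762 in diabetic libraries, against 11711, 12874 and 16140 in normal libraries. The means were 11.8 ± 3.73 in diabetic and 20.2 ± 2.92 FPKM in normal epithelium (SD, n = 3 each). The log2 fold change was -0.75 (95% interval -1.25 to -0.25, limma unadjusted p = 0.00908, adjusted p = 0.953), and edgeR also gave -0.75 (unadjusted p = 0.0166). It ranged from -0.98 to -0.58 with limma when each library was left out in turn. The whole locus lies inside the locus of *Rufy1* on the other strand, and whether counting used strand is not given. *Rufy1*, a regulator of endosomes, had 8.18, 14.0 and 8.33 FPKM in diabetic libraries, against 10.5, 13.1 and 9.55 FPKM in normal libraries, with diabetic replicate 2 the highest library, and its part in the *Hnrnph1* values was not tested.

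*Hnrnpf*, the close relative of *Hnrnph1* (rn6 chr4:149924574-149982380), had 6.64, 4.89 and 6.77 FPKM in diabetic libraries, against 15.2, 6.94 and 8.86 FPKM in normal libraries. The groups did not overlap, but normal replicate 1 stood far above the other normal libraries. The log2 fold change was -0.59 (SE 0.251, limma unadjusted p = 0.0475, adjusted p = 0.953), and -0.31 without normal replicate 1. edgeR gave -0.74 on the counts, and -0.35 without normal replicate 1. The other members of the subfamily did not separate. *Hnrnph2*, on chromosome X, averaged 19.2 ± 2.41 FPKM in diabetic and 21.5 ± 1.26 FPKM in normal epithelium, and *Hnrnph3* averaged 3.81 ± 0.235 FPKM in diabetic and 3.66 ± 0.553 FPKM in normal epithelium (SD, n = 3 each).

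**Figure D4:**
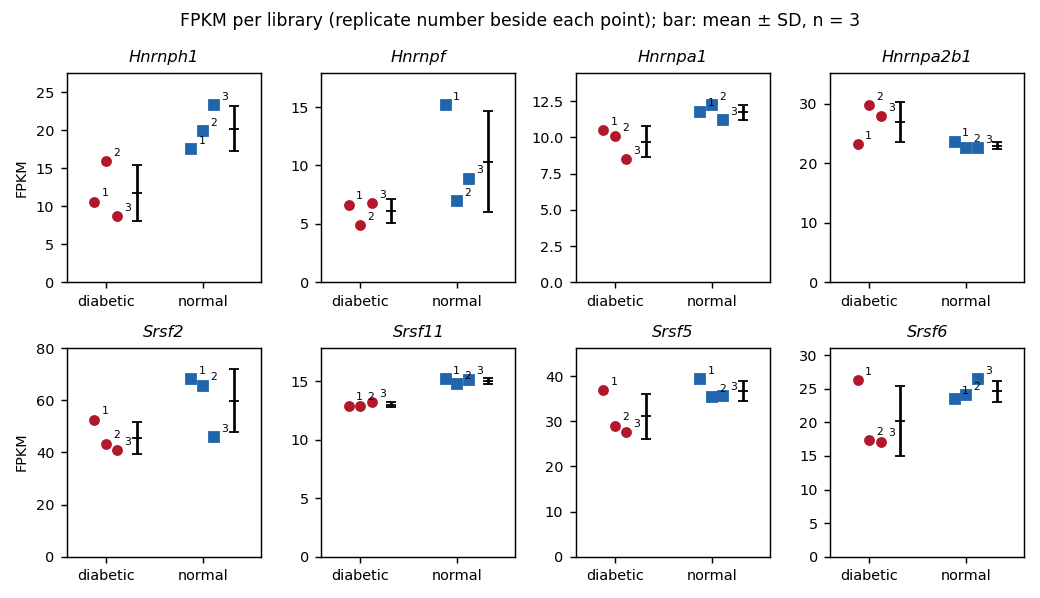
FPKM in each diabetic (left, circles) and normal (right, squares) library for 8 *Hnrnp* and *Srsf* genes, with replicate numbers beside the points and bars for the mean ± SD (n = 3); axes start at 0. The groups are apart for *Hnrnph1*, *Hnrnpf*, *Hnrnpa1* and *Srsf11*, with a single high normal library in *Hnrnpf*, and overlap for *Hnrnpa2b1*, *Srsf2*, *Srsf5* and *Srsf6*.

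The hnRNP A and B proteins, which mostly repress exons, went to different sides. *Hnrnpa1* (rn6 chr7:144865148-144872541) had 10.5, 10.1 and 8.49 FPKM in diabetic libraries, against 11.8, 12.2 and 11.2 FPKM in normal libraries, without overlap (log2 fold change -0.24, SE 0.108, limma unadjusted p = 0.0634). *Hnrnpa2b1* (rn6 chr4:81232816-81243704), which also sorts RNAs for transport, had 23.2, 29.8 and 27.9 FPKM in diabetic libraries, against 23.7, 22.6 and 22.6 FPKM in normal libraries (0.24, SE 0.125, limma unadjusted p = 0.0964). Here diabetic replicates 2 and 3 lay above all normal libraries and diabetic replicate 1 between them. Neither gene passed, and their difference from each other was not tested. *Hnrnpab* had 34.1 ± 4.42 FPKM in diabetic and 35.9 ± 5.03 FPKM in normal epithelium (SD, n = 3 each). *Hnrnpa3* has only a row without a transcript type here, at 4.89, 4.22 and 3.96 FPKM in diabetic and 4.16, 4.05 and 5.30 FPKM in normal libraries.

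The most abundant hnRNPs differed little. *Hnrnpk*, which binds cytosine-rich RNA through KH domains, had 53.7, 46.3 and 48.7 FPKM in diabetic libraries, against 52.8, 51.0 and 56.0 FPKM in normal libraries (log2 fold change -0.09, 95% interval -0.33 to 0.15). *Hnrnpl*, which binds repeats of cytosine and adenine, had 40.4, 39.3 and 39.8 FPKM in diabetic libraries, against 39.9, 45.4 and 39.5 FPKM in normal libraries (-0.04, 95% interval -0.27 to 0.18). For both genes the groups overlapped and the interval leaves out a fold of 1.5 in either direction. *Hnrnpu*, a scaffold of nuclear RNA and chromatin, had 21.8 ± 1.10 FPKM in diabetic and 24.1 ± 3.07 FPKM in normal epithelium (SD, n = 3 each). *Hnrnpd*, known as AUF1 and a regulator of the decay of AU-rich mRNAs, had 20.3 ± 2.37 FPKM in diabetic and 23.7 ± 4.91 FPKM in normal epithelium (SD, n = 3 each). *Hnrnpc*, which binds uridine tracts and keeps U2AF from cryptic exons, had 4.41, 3.99 and 4.06 FPKM in diabetic libraries, against 5.52, 4.18 and 5.69 FPKM in normal libraries (-0.23), with overlap through 1 library of each group. The remaining members, *Hnrnpll*, *Hnrnpdl*, *Hnrnpul2* and *Hnrnpr*, had log2 fold changes from -0.11 to -0.03, and *Hnrnpm*, whose row is joined with *Marchf2* and is uncertain, had 0.16. Over the class, 3 values were positive and 14 negative (median -0.091, and -0.16 without normal replicate 2 or -0.032 without normal replicate 3), and summed FPKM was 316, 295 and 283 in diabetic libraries, against 328, 307 and 345 in normal libraries.

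The snRNP class, which holds the Sm ring and the U1 and U2 proteins, had 7 positive and 3 negative log2 fold changes and a median of 0.019, which ran from -0.019 to 0.094 with limma when each library was left out. *Snrpb*, of the Sm ring, had 15.0, 14.8 and 13.1 FPKM in diabetic libraries, against 14.8, 14.7 and 13.9 FPKM in normal libraries (0.01, 95% interval -0.21 to 0.23). *Snrpd2*, of the same ring, had 17.04, 22.9 and 14.5 FPKM in diabetic libraries, against 17.2, 15.1 and 15.1 FPKM in normal libraries (0.19, SE 0.162), with diabetic replicate 2 alone above the rest. Without that library the log2 fold change of *Snrpd2* was 0.014, and without diabetic replicate 3 it was 0.32. *Snrpd1* and *Snrpf* averaged 4.87 and 4.71 FPKM in diabetic epithelium, against 4.81 and 4.27 FPKM in normal epithelium. The rows of 2 further ring proteins, *Snrpe* and *Snrpg*, are short and lie on chromosomes 8 and 1 of rn6, while RefSeq places both genes on other chromosomes, so near-identical copies cannot be told apart from them and both are uncertain. The *Snrpe* row (rn6 chr8:129371556-129371973) had 4.74, 4.67 and 4.09 FPKM in diabetic libraries, against 2.76, 4.03 and 3.54 FPKM in normal libraries, without overlap (0.33, SE 0.143, limma unadjusted p = 0.0527). The *Snrpg* row (rn6 chr1:91588228-91588609) had 2.45, 9.97 and 10.4 FPKM in diabetic libraries, against 5.91, 6.61 and 2.63 FPKM in normal libraries (0.42, SE 0.493). Its lowest and its highest library were both diabetic, and without single libraries its log2 fold change ran from 0.08 to 0.99 with limma.

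The U1 proteins *Snrpa* and *Snrpc* had log2 fold changes of 0.00 and -0.05, at 5.97 ± 0.364 and 7.36 ± 0.371 FPKM in diabetic epithelium, against 6.02 ± 0.598 and 7.78 ± 0.275 FPKM in normal epithelium (SD, n = 3 each). The U2 proteins *Snrpa1* and *Snrpb2* had -0.01 and -0.19, and *Snrpb2* shares its row with *Otor*, is uncertain and ran from -0.32 to -0.058 with limma when each library was left out. At the 3′ splice site, *U2af1*, which contacts the terminal AG, had 9.44 ± 0.991 FPKM in diabetic and 10.3 ± 0.627 FPKM in normal epithelium (SD, n = 3 each, -0.09). *U2af2*, which binds the polypyrimidine tract, had 10.4, 8.71 and 8.41 FPKM in diabetic libraries, against 10.4, 9.59 and 9.55 FPKM in normal libraries (-0.08). Their relative *U2af1l4* had 8.42 ± 0.642 FPKM in diabetic and 8.51 ± 0.189 FPKM in normal epithelium (SD, n = 3 each). All *U2af* groups overlapped, with diabetic replicate 3 the lowest library of each gene.

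The *Sf3a* and *Sf3b* genes, whose complexes anchor U2 at the branch point, had median log2 fold changes of -0.041 and 0.021. *Sf3a1*, *Sf3a2* and *Sf3a3* had 12.5 ± 1.67, 6.75 ± 0.902 and 6.69 ± 0.727 FPKM in diabetic epithelium, against 13.0 ± 0.432, 7.16 ± 0.938 and 6.88 ± 0.703 FPKM in normal epithelium (SD, n = 3 each), with log2 fold changes of -0.04, -0.07 and -0.02. *Sf3b1*, the large subunit that clamps the branch helix, had 33.7, 28.6 and 33.7 FPKM in diabetic libraries, against 33.3, 34.9 and 30.9 FPKM in normal libraries (-0.02, 95% interval -0.28 to 0.24). The groups overlapped for these 4 genes. *Sf3b2* and *Sf3b3* had 0.08 and 0.02, and *Sf3b6*, which touches the branch adenosine, had 0.18 at 5.06, 4.51 and 4.09 FPKM in diabetic and 4.07, 2.93 and 5.06 FPKM in normal libraries. For *Sf3b6* the value without normal replicate 2 was 0.020, and 0.32 when normal replicate 3 was left out. *Sf3b5*, a small subunit, had 8.79, 5.01 and 6.84 FPKM in diabetic libraries, against 7.94, 9.44 and 8.34 FPKM in normal libraries (-0.29, SE 0.174), and overlapped through diabetic replicate 1. Leaving out diabetic replicate 1 gave -0.45 for *Sf3b5*, and leaving out diabetic replicate 2 gave -0.12.

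Among *Prpf* genes, *Prpf8*, the protein that holds the catalytic centre, had 32.9, 32.1 and 34.1 FPKM in diabetic libraries, against 32.1, 32.6 and 30.8 FPKM in normal libraries (log2 fold change 0.08, 95% interval -0.15 to 0.30). *Prpf6*, which bridges the tri-snRNP, had 14.8 ± 1.06 and *Prpf19*, a ubiquitin ligase that activates the spliceosome, 14.6 ± 0.469 FPKM in diabetic epithelium, against 14.2 ± 0.767 and 14.3 ± 1.02 FPKM in normal epithelium (SD, n = 3 each). These were the 3 positive values of the class, the other 10 were negative, and the median was -0.021, with -0.060 without diabetic replicate 1 and 0.015 without diabetic replicate 3. The U4/U6 proteins *Prpf3*, *Prpf4* and *Prpf31* had -0.02, -0.02 and -0.06. *Prpf18*, a factor of the second catalytic step, had 7.24, 5.31 and 5.39 FPKM in diabetic libraries, against 6.69, 6.79 and 8.39 FPKM in normal libraries (-0.24, SE 0.144). *Prpf38b*, a relative of the tri-snRNP factor *Prpf38a*, had 5.43, 3.88 and 3.81 FPKM in diabetic libraries, against 5.18, 4.21 and 5.90 FPKM in normal libraries (-0.18, SE 0.164). *Prpf39*, named for a U1 protein of yeast, had 6.13, 4.73 and 4.07 FPKM in diabetic libraries, against 6.30, 4.78 and 5.74 FPKM in normal libraries (-0.14). In these 3 genes diabetic replicate 1 lay within the normal range, and without it their log2 fold changes were -0.36 for *Prpf18*, -0.31 for *Prpf38b* and -0.27 for *Prpf39*. The values nearest 0 were -0.15 for *Prpf18* and -0.086 for *Prpf38b* without normal replicate 3, and -0.021 for *Prpf39* without diabetic replicate 3. *Prpf38a*, *Prpf40b* and the kinase gene *Prpf4b* had values between -0.03 and 0.

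In the annotation of the files, 31 of 60 members carry the term spliceosomal complex, against 0.929% of the 11201 tested protein-coding loci with annotation. The term catalytic step 2 spliceosome is on 28 (0.679%), RNA splicing on 34 (1.31%), RNA binding on 47 (5.81%) and nuclear speck on 27 (2.37%). Members were chosen by splicing factor symbols, so these shares describe the choice and are not a result. Among 20 tested rows that carry a member prefix but no plain protein-coding type, 0 had an unadjusted limma p under 0.05 and 0 passed, with *Snrpd3* at 3.95, 3.69 and 3.54 FPKM in diabetic and 4.14, 3.86 and 4.52 FPKM in normal libraries. Of the members, 20 lie on a row overlapped by another tested locus.

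The other genes of the pathway were followed through 9 lists, in which 123 of 153 genes were tested. With limma, edgeR and DESeq2, 0 of 123 passed, 53 log2 fold changes were positive and 70 negative, and the median was -0.021. At an unadjusted limma p under 0.05, 1 of the 123 was higher and 1 lower, beside 1.55% and 1.50% of protein-coding loci. The higher was *Ybx1*, a Y-box protein that binds mRNA and exons, with 93.0, 84.9 and 77.4 FPKM in diabetic libraries, against 72.5, 53.6 and 75.7 FPKM in normal libraries (0.39, SE 0.147, adjusted p = 0.953 with limma). The lower was *Lsm4*, of the ring that holds U6 RNA, with 10.6, 3.08 and 2.02 FPKM in diabetic libraries, against 9.48, 10.2 and 9.73 FPKM in normal libraries (-1.05, SE 0.439). *Ybx1* did not overlap between groups, and *Lsm4* overlapped because diabetic replicate 1 was the highest library of all. Of the 123 genes, 3 lay above without overlap and 6 below, where 3.94% and 5.72% of all tested loci did so.

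By list, 4 of 14 genes of U1, U2 and splice site recognition were positive and 10 negative, among them *Phf5a*, an SF3b subunit (12.02, 12.2 and 11.6 FPKM in diabetic, against 14.3, 13.3 and 13.8 FPKM in normal libraries, -0.17), and *Sf1*, the branch point binding protein (6.99, 6.70 and 6.47 FPKM in diabetic, against 10.9, 7.36 and 7.03 FPKM in normal libraries, -0.25). Both were without overlap and neither passed. Of 16 tri-snRNP and LSm genes 5 were positive and 11 negative, with the helicase *Ddx23* at -0.26. Of 23 genes of the catalytic steps 12 were positive and 11 negative. *Cdc5l*, of the *Prpf19* complex, was at 0.14 without overlap, and *Rbm22* was at -0.24. Of 15 SR-related genes and SR kinases 8 were positive and 7 negative, with *Acin1* at 0.16 and *Tra2b*, a splicing activator, at -0.09. Of 17 other hnRNP-like genes 8 were positive and 9 negative, with *Matr3*, a nuclear matrix protein, at -0.21 and without overlap. Of 13 cell type dependent regulators 6 were positive and 7 negative. The epithelial regulator *Esrp2* had 19.8, 17.3 and 19.0 FPKM in diabetic libraries, against 19.4, 22.1 and 22.1 FPKM in normal libraries (-0.16, SE 0.103). *Tial1* was at -0.17, without overlap. Of 9 minor spliceosome genes 3 were positive and 6 negative, with *Snrnp25* at -0.21 and *Zrsr1* at -0.09. Of 12 genes that load Sm proteins 6 were positive and 6 negative, with *Ddx20* at 0.25 and *Gemin6* at 0.21, both with overlap. *Ddx20* had 4.70, 4.06 and 4.19 FPKM in diabetic libraries, against 1.99, 4.40 and 4.70 FPKM in normal libraries, with normal replicate 1 alone low. Of 4 exon junction genes 1 was positive and 3 negative, with *Magoh* at -0.15 and *Rbm8a* at 0.18.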

How the data were processed

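RNA-seq of 3 diabetic and 3 normal libraries was analysed at the level of loci. Per the labels, the authors used cutadapt for trimming, FastQC for quality and Bowtie2 for alignment to rn6. Versions, the counting program and its use of strand are not given. The authors deposited a raw count and an FPKM value per locus. FPKM is scaled by locus length and library size, and the length implied for members ran from 436 to 20041 bases (median 36.9% of the genomic span), so levels of different genes depend on it, and isoforms were not separated. The 86380 deposited FPKM placeholders of 0.0001, given where a count is 0, were set to 0.

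Here log2(FPKM + 1) was quantile-normalized over 42551 loci with a mean of at least 0.5 FPKM and tested with limma 3.58.1 (eBayes with trend, R 4.3.3), Benjamini-Hochberg adjusted over all of them. Counts of the same loci were tested with edgeR 4.0.16 (TMM, quasi-likelihood) and DESeq2 1.42.0. Methods were run on simulated data with known fold changes, and how many of these they recovered is not reported here. Replicates of a group differed by more than counting noise. Fewer cells of a type and less RNA per cell cannot be told apart. Members, gene lists and tests were chosen with earlier results of these data known. Named genes were, per class, the 3 of highest mean FPKM and the 3 of smallest limma p. Also named were members whose groups separated, those of extreme variation, those near the FPKM limit and those on several rows. Per list, the 2 genes of smallest limma p were named. The other members, and *Rufy1*, *Srsf3*, *Snrpd3*, *Hnrnpa3*, *Krt12* and *Aldh3a1*, were added after their values were seen. Marker genes were read as list sums. The values of 1 member are counted in totals and not reported here on their own. Alternatives were other normalizations, pseudocounts, filters, variance priors, summed rows, a replicate block and leaving out each library.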

Additional observations from a re-analysis of the deposited data

How the results depend on the processing

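Under all 26 alternatives 0 of 60 members and 0 of the tested pathway genes passed, and the smallest adjusted p of any member in any of them was 0.341 (*Srsf6*, edgeR without diabetic replicate 1). For the named members followed across alternatives the adjusted p ranged from 0.37 to 1. Of 598 log2 fold changes of named members, 576 kept their direction and 22 reversed. No member was called, so no reversal could concern a called gene. The number of loci of any kind that passed, 11 with limma, was 6 with edgeR, 99 with DESeq2, 5 with edgeR and upper quartile scaling, 6 with a pseudocount of 0.1, 3 without the filter and 3 among protein-coding loci alone. It ranged from 3 to 10 with limma and from 2 to 14 with edgeR when each library was left out. Members with a positive log2 fold change, 17 with limma and 19 with edgeR, ranged from 13 to 32 with limma and from 13 to 33 with edgeR when each library was left out, with 32 and 33 without diabetic replicate 3 and 26 without normal replicate 2 (edgeR). Without a library, the class median ranged from -0.027 to 0.094 for *Sf3b* with limma, with 0.13 in edgeR, and without diabetic replicate 3 edgeR gave 0.12 for *Snrp* and 0.0062 for *U2af*. *U2af1l4*, at -0.0038, was 0.0091 with edgeR, 0.014 with DESeq2, 0.011 with upper quartile scaling and 0.0067 with cyclic loess. The sign of *Sf3a1*, *Sf3a2*, *Sf3a3*, *U2af1* and *U2af1l4* depended on single libraries. For *Sf3a1* the log2 fold change ran from -0.12 to 0.027 with limma and from -0.14 to 0.056 with edgeR when each library was left out. For *Sf3a2* the log2 fold change ran from -0.13 to 0.035 with limma and from -0.15 to 0.056 with edgeR when each library was left out. For *Sf3a3* the log2 fold change ran from -0.098 to 0.051 with limma and from -0.097 to 0.074 with edgeR when each library was left out. For *U2af1* the log2 fold change ran from -0.15 to -0.016 with limma and from -0.16 to 0.0062 with edgeR when each library was left out. For *U2af1l4* the log2 fold change ran from -0.046 to 0.054 with limma and from -0.048 to 0.086 with edgeR when each library was left out. *Sf3a3* was 0.0030 without normal replicate 1 and 0.055 without normal replicate 2, and *U2af1l4* 0.00035 without normal replicate 2 (edgeR). The causes were not tested.

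Same-numbered libraries of the groups did not deviate together (correlations of deviations -0.0092, 0.025 and 0.032). Differently numbered libraries ran from -0.072 to 0.053. Such correlations cannot exclude a pairing, and the labels state none. With the replicate block 0 members passed, with 1 locus in all under limma and 0 under edgeR, and *U2af1l4* was 0.0046 under edgeR. Alternatives on counts with edgeR for left-out libraries, the block in edgeR and the sum of all rows of a symbol were chosen after seeing the data. With 3 libraries a group, the 95% interval stayed within a fold of 1.2 for 4 of 60 members, and a p that misses the threshold does not show equal levels.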
